A study of Mus musculus with 6 samples.

Results

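The genes of the secondary and ficolin granules, which neutrophils fill late in their development, were followed in mouse progenitors held immature by a HOXA9 fusion. The 10 genes were Ltf, Camp, Ngp, Lcn2, Chil3 (Chi3l3 in the deposited table), Cd177, Olfm4, Pglyrp1, Anxa1 and Fcnb. They were taken by name from the 23337 genes of the deposited count table, and all 10 were found.

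The cells were granulocyte-monocyte progenitors from the bone marrow of C57BL6 mice, and all of them carried ER-HOXA9, in which the homeobox factor HOXA9 is joined to the estrogen receptor so that estrogen keeps the cells dividing and immature. The first group received a mixture for 3 days: GSK-LSD1 at 200 nM, which blocks the histone demethylase LSD1, mercaptopurine at 5 µM, a purine analogue, and cerulenin at 5 µM, which blocks fatty acid synthesis. The second group was kept 3 days with DMSO, the solvent (vehicle), and the third was untreated and taken at day 0. Every group grew in serum with stem cell factor and 0.5 µM beta-estradiol, the ligand of the fusion, so the ligand was present in every sample. Each group had 2 biological replicates, and the labels do not say how far their cultures were separate, so p-values measure the spread between these samples. Libraries of polyadenylated RNA held 11305666 to 16948697 counts, of which the ribosomal RNA precursor Rn45s took 15.67% and 15.89% with the drugs, 16.12% and 14.62% with vehicle, and 20.45% and 24.64% at day 0.

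Neutrophil granules are filled in order as the cell matures. Promyelocytes make the primary granules with myeloperoxidase and elastase, myelocytes and metamyelocytes then make the secondary granules with lactoferrin, cathelicidin and lipocalin 2, and gelatinase and ficolin granules follow. Transcription of the secondary granule genes depends on the factor C/EBP epsilon, and loss of that factor leaves neutrophils without these proteins.

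Of the 10 genes, 5 were expressed and 5 were at or near 0 in every group, with at most 10 counts in any library. Among all genes of the table, 50.6% had at most 10 counts in every library, so this share was not particular to the granule genes. Chil3, Anxa1 and Lcn2 were higher with the drugs than with vehicle, Fcnb was lower, and Pglyrp1 was not called. The textbook secondary granule genes Ltf, Camp and Ngp never exceeded 2 counts in a library.

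Camp encodes cathelicidin, the precursor of an antimicrobial peptide, and Olfm4 encodes olfactomedin 4, a glycoprotein found in a subset of neutrophils. Both had 0 counts in all 6 libraries. A count of 0 allows up to 0.107 CPM over the drug libraries, 0.122 CPM over the vehicle libraries and 0.104 CPM over the day 0 libraries, taking 3 counts over the group as the limit. CPM is the normalised read count, scaled to a common library size, and limits and intervals cover counting error only. In the table as a whole 8069 genes, or 34.6%, had 0 counts in every library.

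Ltf encodes lactoferrin, which binds iron, and Ngp encodes a small granule protein related to the cathelicidins. Ltf had 0 and 0 counts with the drugs, 1 and 1 with vehicle, and 0 and 2 at day 0. Ngp had 0 and 1 counts with the drugs, 2 and 2 with vehicle, and 0 and 0 at day 0. The ratio of summed Ngp counts, drugs over vehicle, was 0.22 with an exact 95% interval of 0.00447 to 2.22. A difference in either gene was not detectable at this depth.

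Cd177 encodes a surface glycoprotein that presents proteinase 3 on human neutrophils. It had 10 and 5 counts with the drugs, 3 and 0 with vehicle, and 0 and 3 at day 0. Both drug libraries were above all 4 others. The ratio of summed counts was 4.4 for the drugs over vehicle (exact 95% interval 1.24 to 23.7) and 5.14 for the drugs over day 0 (1.45 to 27.7). Cd177 was below the count filter, and in the edgeR test without that filter it was not called (adjusted p = 0.135 for the drugs over vehicle and 0.0674 for the drugs over day 0). Its level was 0.562 ± 0.338 CPM with the drugs, 0.119 ± 0.168 CPM with vehicle and 0.1247 ± 0.176 CPM at day 0 (SD, n = 2 each).

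How reads with several matches were counted is not stated in the labels, so sequence shared between genes was measured. Of the 50-base windows in their GENCODE transcripts, Ltf, Camp and Ngp shared 0% with any other gene, Olfm4 shared 3.55% and Cd177 shared 5.51%. Camp, Ngp and Ltf lie within 1195 kb on chromosome 9 of mm10, from 109847377 at the first base of Camp to 111042766 at the last base of Ltf. Between them are 28 other genes, of which 15 had enough counts to be tested, with a median level of 48.8 CPM. Of those 15, 2 were called higher and 2 lower for the drugs over vehicle, against 18.1% and 13.8% of all tested genes.

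The 5 expressed genes had at least 1.842 CPM in every library, against a filter at 0.781 CPM, so none of them passed the filter through 1 group alone. Anxa1 encodes annexin A1, a phospholipid-binding protein that restrains inflammation, and Chil3 encodes the chitinase-like lectin Ym1. Lcn2 encodes lipocalin 2, which binds bacterial siderophores and so withholds iron. Pglyrp1 encodes a protein that binds bacterial peptidoglycan, and Fcnb encodes ficolin B, a lectin that can start the complement cascade.

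**Figure D1:**
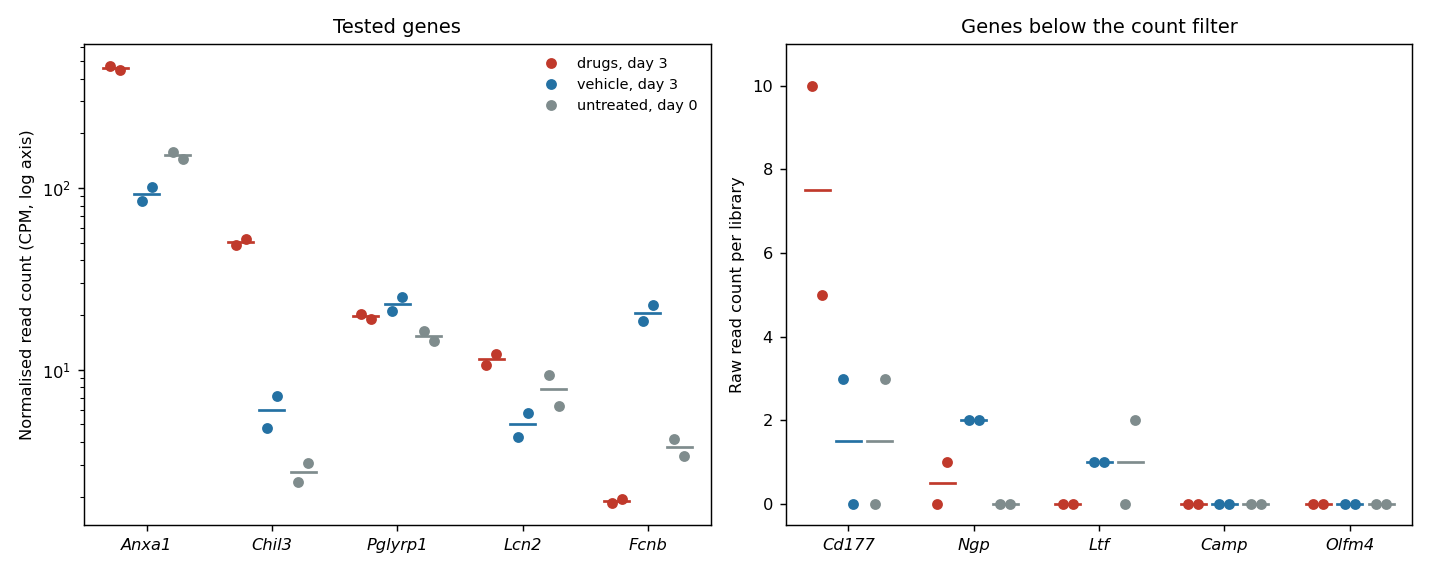
Normalised read counts (left, CPM, log axis) of the 5 tested genes and raw read counts (right) of the 5 genes below the count filter. Points are the 6 libraries and lines are group means (n = 2). Anxa1 and Chil3 were highest with the drugs, Fcnb was highest with vehicle, and Camp and Olfm4 were at 0 throughout.

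The promoters of Anxa1, Chil3 and Fcnb are printed because these genes made the largest changes and Fcnb moved against the other pair. They are RefSeq sequences on GRCm38.p6, 300 bases around the start of each gene, written 5′ to 3′ on the gene's strand. Capitals mark matches on either strand to TTNNGNAA (a C/EBP motif), to GAGGAAGT (a PU.1 motif) or to AAATCA (the core of the GFI1 motif). The windows are chr19:20390622-20390921 for Anxa1, chr3:106167515-106167814 for Chil3 and chr2:28084829-28085128 for Fcnb, all on the minus strand.
Anxa1: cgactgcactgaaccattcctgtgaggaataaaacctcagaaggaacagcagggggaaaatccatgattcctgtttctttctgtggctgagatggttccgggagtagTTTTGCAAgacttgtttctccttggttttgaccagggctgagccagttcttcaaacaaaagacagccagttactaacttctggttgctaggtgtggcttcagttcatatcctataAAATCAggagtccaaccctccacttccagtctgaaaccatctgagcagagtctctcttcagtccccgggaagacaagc
Chil3: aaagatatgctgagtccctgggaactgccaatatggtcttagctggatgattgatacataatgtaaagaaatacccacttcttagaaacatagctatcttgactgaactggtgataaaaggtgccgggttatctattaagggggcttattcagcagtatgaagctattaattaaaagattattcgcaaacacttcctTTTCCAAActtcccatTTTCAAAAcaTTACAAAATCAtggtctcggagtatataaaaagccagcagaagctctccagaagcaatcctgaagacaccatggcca
Fcnb: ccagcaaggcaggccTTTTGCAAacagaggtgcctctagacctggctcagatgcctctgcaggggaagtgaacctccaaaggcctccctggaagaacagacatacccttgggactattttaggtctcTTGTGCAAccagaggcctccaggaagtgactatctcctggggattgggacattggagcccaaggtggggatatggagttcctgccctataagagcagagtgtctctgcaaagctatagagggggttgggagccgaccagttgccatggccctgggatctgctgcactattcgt

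All 10 genes had a promoter in the RefSeq table, and 8 of the 10 held a C/EBP match, against 40.7% of its 32851 promoters. In Chil3 there were 3 matches, starting at -53, -37 and -27 from the start site, and the GFI1 core at -22 overlaps the last of them. Anxa1 held a C/EBP match at -143 and a GFI1 core at -28, and Fcnb held C/EBP matches at -235 and -123. The genes at or near 0 held them too, with 3 in Ngp, 2 in Ltf, 1 in Cd177 and 1 in Olfm4, while Camp and Pglyrp1 held none. The GFI1 core was found in 3 of the 10 (Anxa1, Chil3 and Ltf), against 14% of all promoters, and the PU.1 motif in 1 of the 10 (Olfm4), against 3.2%. A match describes letters in the window, and binding was not measured.

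Between drugs and vehicle, which were taken on the same day, 3 of the 5 tested genes were called higher and 1 lower. Of all 11283 genes tested, 18.1% were called higher and 13.8% lower (edgeR quasi-likelihood test, Benjamini-Hochberg adjusted p under 0.05). The median log2 change was 1.19 over the 5 genes and 0.0008 over all genes tested. The drugs were given only as a mixture, so the effects of the single drugs cannot be told apart. In bulk RNA, fewer cells of a type and less RNA per cell cannot be told apart. These 4 calls and the missing call of Pglyrp1 held in all 15 alternative analyses.

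Chil3 (chromosome 3, 106147554 to 106167564) stood at 48.3 and 52.73 CPM with the drugs, 4.74 and 7.19 CPM with vehicle, and 2.39 and 3.08 CPM at day 0. The 3 groups did not overlap, and the drug libraries stood far above the rest. Its log2 change for the drugs over vehicle was 3.09 ± 0.151 (SE), or 8.50-fold (edgeR adjusted p = 9.73e-09).

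Chil3 shared 26.9% of its 50-base windows with other genes, mostly with its neighbour and near copy Chil4, so reads of the pair may have been exchanged. Chil4 had 52 and 68 counts with the drugs, 4 and 8 with vehicle, and 3 and 2 at day 0. Chil4 was over the count filter in the drug libraries only, so it had to differ to be tested, and its fitted log2 change was 3.11 ± 0.336 (edgeR adjusted p = 1.47e-05). Chil3 itself had 603 and 817 counts with the drugs, 60 and 86 with vehicle, and 40 and 37 at day 0.

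Anxa1 (chromosome 19, 20373434 to 20390671) stood at 471.1 and 446.2 CPM with the drugs, 84.82 and 101.7 CPM with vehicle, and 158.0 and 144.5 CPM at day 0. The drug libraries were highest and the vehicle libraries lowest, without overlap. Its log2 change for the drugs over vehicle was 2.30 ± 0.0931, or 4.92-fold (edgeR adjusted p = 1.71e-09). The transcript 1500015L24Rik, annotated on the opposite strand, had at most 1 count in any library.

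Lcn2 (chromosome 2, 32384637 to 32387739) was the textbook secondary granule gene with a measurable level. It stood at 10.57 and 12.2 CPM with the drugs, 4.27 and 5.77 CPM with vehicle, and 9.39 and 6.32 CPM at day 0. The vehicle libraries were the lowest, and the drug libraries were above the day 0 libraries by a small margin. Its log2 change for the drugs over vehicle was 1.19 ± 0.207, or 2.28-fold (edgeR adjusted p = 0.000803).

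Fcnb (chromosome 2, 28076479 to 28084878) went against the other called genes. It stood at 1.84 and 1.94 CPM with the drugs, 18.42 and 22.58 CPM with vehicle, and 4.13 and 3.32 CPM at day 0, from 23 and 30, 233 and 270, and 69 and 40 counts in those groups. The vehicle libraries were the highest and the drug libraries the lowest, without overlap. Its log2 change for the drugs over vehicle was -3.43 ± 0.189, which is 10.8-fold lower with the drugs (edgeR adjusted p = 2.92e-08).

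Pglyrp1 (chromosome 7, 18884690 to 18890438) stood at 20.27 and 18.97 CPM with the drugs, 21.03 and 25.08 CPM with vehicle, and 16.33 and 14.29 CPM at day 0. The drug libraries were just below the vehicle libraries. Its log2 change for the drugs over vehicle was -0.23 ± 0.119 (edgeR adjusted p = 0.156), which does not show that the drugs left it unchanged.

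**Figure D2:**
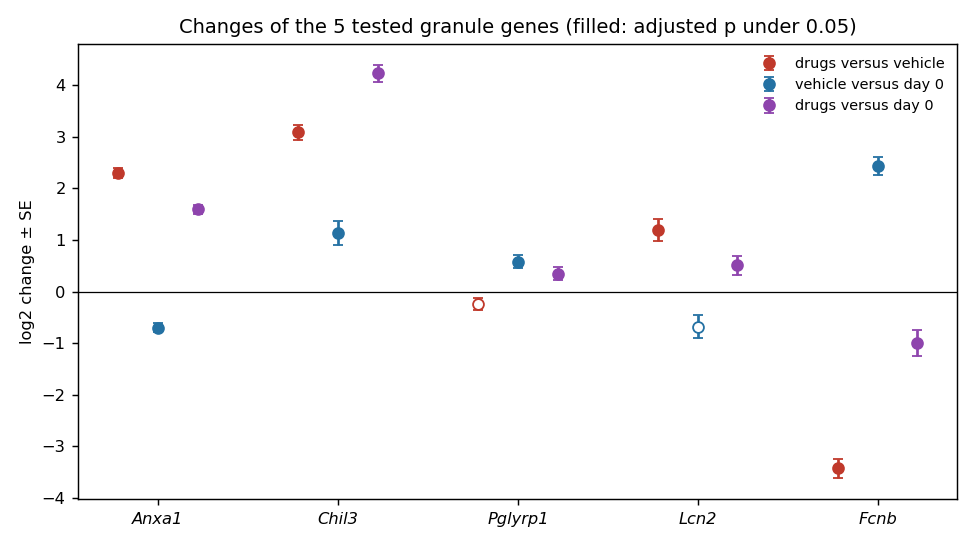
Log2 changes with SE of the 5 tested genes in the 3 comparisons, filled where the edgeR adjusted p was under 0.05. Chil3 and Anxa1 were higher with the drugs than in either other group, and Fcnb was lower with the drugs and higher with vehicle than at day 0.

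Vehicle culture for 3 days was itself compared with day 0. Fcnb, Chil3 and Pglyrp1 were called higher and Anxa1 lower, that is 3 higher and 1 lower of 5, against 3.75% of all tested genes called higher and 3.99% lower. The median log2 change was 0.58 over the 5 genes and -0.02 over all genes tested. Time in culture and solvent cannot be told apart here, and the vehicle libraries are shared with the drug comparison.

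Fcnb was 5.41-fold higher with vehicle than at day 0, with a log2 change of 2.44 ± 0.166 (edgeR adjusted p = 6.81e-06). Anxa1 fell by 0.70 ± 0.0922 on the log2 scale (edgeR adjusted p = 0.000767). Chil3 changed by 1.14 ± 0.232 (edgeR adjusted p = 0.0104), but it was no longer called when vehicle replicate 2 (adjusted p = 0.0556) or day 0 replicate 1 (adjusted p = 0.102) was left out. Pglyrp1 changed by 0.58 ± 0.122 (edgeR adjusted p = 0.0127), and was no longer called when vehicle replicate 2 was left out (adjusted p = 0.0599). Lcn2 was not called, with a log2 change of -0.68 ± 0.218 (edgeR adjusted p = 0.0773), but it was called lower without day 0 replicate 2 (adjusted p = 0.00738), with no count filter (adjusted p = 0.00289) and with the crossed replicate block (adjusted p = 0.00551).

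The drug libraries were also set against day 0, where the cultures began. Drugs, time in culture and solvent cannot be told apart in this comparison, and its libraries are shared with the other comparisons. Here 4 of the 5 genes were called higher and 1 lower, against 22.7% of all tested genes called higher and 21.2% lower. Chil3 was 18.8-fold higher with the drugs than at day 0 (log2 change 4.23 ± 0.169, edgeR adjusted p = 1.15e-09) and Anxa1 3.03-fold higher (1.60 ± 0.0896, adjusted p = 2.72e-08). Fcnb changed by -0.99 ± 0.246 (edgeR adjusted p = 0.00592), a call lost without day 0 replicate 1 (adjusted p = 0.0604).

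The smaller calls in that comparison were fragile. Lcn2 changed by 0.51 ± 0.185 (edgeR adjusted p = 0.0398), and it was not called when drug replicate 1 (adjusted p = 0.0676), drug replicate 2 (0.242) or day 0 replicate 2 (0.204) was left out. Pglyrp1 changed by 0.35 ± 0.122 (edgeR adjusted p = 0.0359), and it was not called when drug replicate 1 (adjusted p = 0.186), drug replicate 2 (0.0918) or day 0 replicate 2 (0.149) was left out. Both calls were also lost with DESeq2 (adjusted p = 0.107 for Lcn2 and 0.111 for Pglyrp1) and with the replicate block (0.0725 for Lcn2 and 0.0643 for Pglyrp1), and that of Lcn2 with scaling by library totals (0.0598).

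Levels of different genes were compared per kilobase of the gene model. With the drugs Anxa1 led at 328.8 CPM per kb, followed by Chil3 at 32.82, Pglyrp1 at 28.81, Lcn2 at 13.35 and Fcnb at 1.779. With vehicle Anxa1 stood at 66.84 CPM per kb, Pglyrp1 at 33.86, Fcnb at 19.3, Lcn2 at 5.884 and Chil3 at 3.877. At day 0 Anxa1 stood at 108.4 CPM per kb, Pglyrp1 at 22.49, Lcn2 at 9.208, Fcnb at 3.509 and Chil3 at 1.777. Within each group the replicates of neighbours in the order did not overlap. Chil3 was last at day 0 and with vehicle and came next after Anxa1 with the drugs, whereas Fcnb was last with the drugs.

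Several other genes of the later granules were higher with the drugs. Of 23 other secondary, gelatinase and secretory granule genes, 16 were tested, and 13 were called higher and 1 lower for the drugs over vehicle, with a median log2 change of 1.01. Mmp9 and Cybb were over the count filter in the drug libraries only, so they had to differ to be tested, and with both set aside the counts were 11 higher and 1 lower of 14, with a median of 0.88. For vehicle over day 0 the counts of the 16 were 2 and 1, and for the drugs over day 0 they were 11 and 2. Of all tested genes, 18.1% were called higher and 13.8% lower for the drugs over vehicle. The shares were 3.75% and 3.99% for vehicle over day 0, and 22.7% and 21.2% for the drugs over day 0. Adam8, 1 of the 13 called higher for the drugs over vehicle, lost its call in 5 of 15 alternative analyses. Mmp25, Lyz2, Orm1, Fpr1, Arg1 and Chil1 had 0 counts in all 6 libraries. Lyz2, the myeloid lysozyme, shared 15.4% of its 50-base windows with other genes, mostly with Lyz1, which had at most 1 count. The gene called lower was Qsox1, a sulfhydryl oxidase (log2 change -0.49 ± 0.171, edgeR adjusted p = 0.0419), and this call was lost with library totals, DESeq2 or the replicate block, and without drug replicate 2, vehicle replicate 1 or vehicle replicate 2.

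Mmp8, the neutrophil collagenase, stood at 3484 and 3800 CPM with the drugs, 7.91 and 12.79 CPM with vehicle, and 4.01 and 5.07 CPM at day 0. With the drugs it supplied most of the summed level of these 23 genes, which was 4155 and 4473 CPM. Hp, haptoglobin, stood at 34.52 and 37.11 CPM with the drugs, 7.51 and 9.11 CPM with vehicle, and 4.73 and 3.82 CPM at day 0. Its log2 change for the drugs over vehicle was 2.11 ± 0.129 (edgeR adjusted p = 6.97e-08). Slc11a1, a metal transporter of phagosomes, changed by 2.49 ± 0.139, and Slpi, an elastase inhibitor, by 1.61 ± 0.116. Mmp9, the gelatinase that gives its granule the name, had 70 and 74 counts with the drugs, 2 and 1 with vehicle, and 4 and 2 at day 0, a ratio of 42.2 for the drugs over vehicle (exact 95% interval 14.2 to 207).

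Of 21 regulators of granulocyte genes, 18 were tested, and 10 were called higher and 1 lower for the drugs over vehicle, with a median log2 change of 0.31. Gfi1b was over the filter in the drug libraries only, and without it 9 of 17 were called higher. Rara stayed among these 9. For vehicle over day 0, however, it had a result in only 14 of 15 alternative analyses, as did Gfi1b. Its test may therefore also rest on the drug libraries. The shares of all tested genes were 18.1% higher and 13.8% lower. Cebpe, which encodes C/EBP epsilon, stood at 72.33 and 66.28 CPM with the drugs, 29.8 and 30.02 CPM with vehicle, and 19.5 and 19.36 CPM at day 0. It was called higher for the drugs over vehicle (log2 change 1.21 ± 0.0821, edgeR adjusted p = 2e-07) and for vehicle over day 0 (0.62 ± 0.0921, adjusted p = 0.00161). Ltf had at most 2 counts and Camp 0 in every library of all groups, and a link between Cebpe and the granule genes was not tested.

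Gfi1, a repressor that recruits LSD1, changed by 1.44 ± 0.0819 for the drugs over vehicle (edgeR adjusted p = 3.69e-08), and its relative Gfi1b had 1104 and 1352 counts with the drugs, 1 and 0 with vehicle, and 5 and 3 at day 0. Irf8, a factor of the monocyte lineage, changed by 2.28 ± 0.141, and Rara, a retinoic acid receptor, by 3.41 ± 0.318, with the filter limit given above. Cebpa, which acts before Cebpe in granulocyte development, was the regulator called lower (edgeR adjusted p = 0.000932). Kdm1a, the gene of LSD1, was not called (log2 change -0.11 ± 0.0767, edgeR adjusted p = 0.288).

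**Figure D3:**
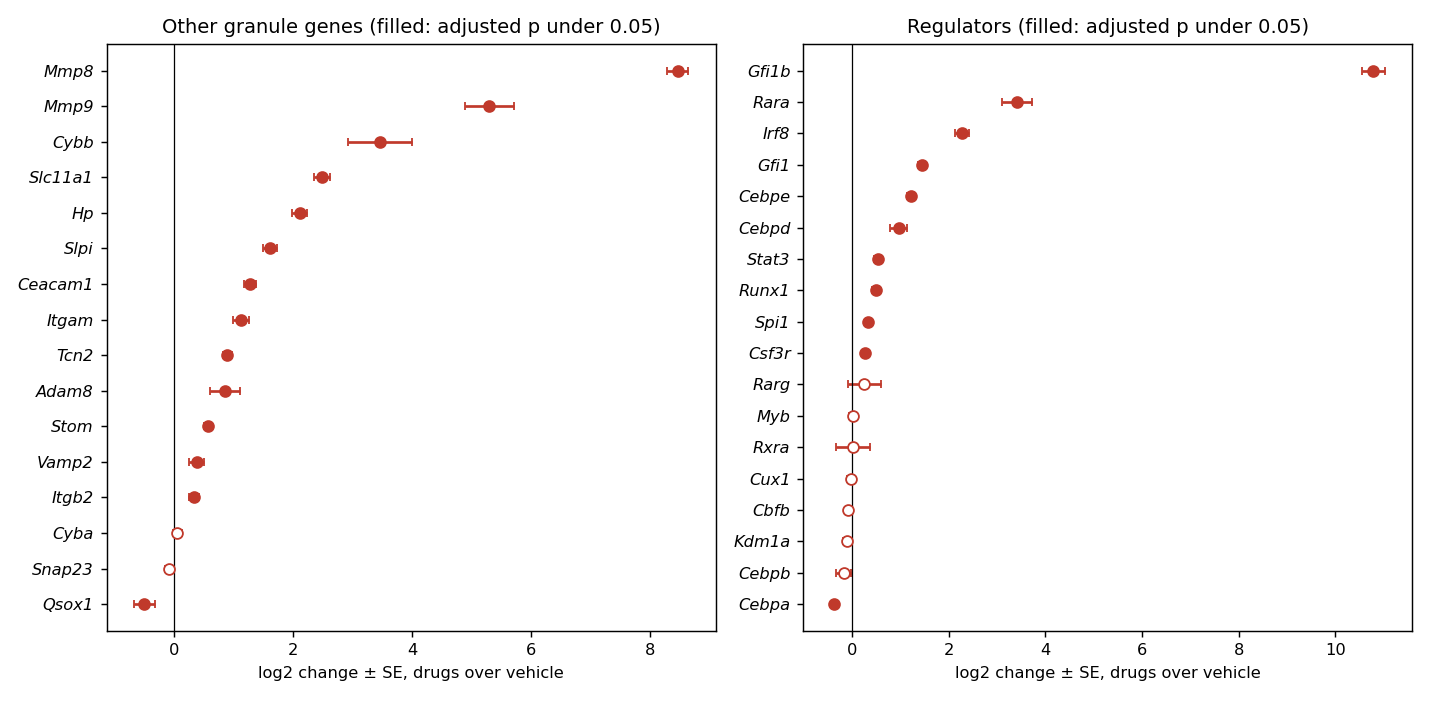
Log2 changes with SE, drugs over vehicle, of the 16 tested genes of other secondary, gelatinase and secretory granules and of the 18 tested regulators, filled where the edgeR adjusted p was under 0.05. Mmp8 and Gfi1b lie farthest to the right. The fitted values of Gfi1b and Mmp9 rest on 1 and 3 counts with vehicle and depend on the prior count.

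All 11 primary granule genes were tested, and 4 were called higher and 3 lower for the drugs over vehicle, with a median log2 change of 0.05. The shares of all tested genes were 18.1% higher and 13.8% lower. The count called lower was 1 without drug replicate 1, drug replicate 2 or vehicle replicate 2, and the count called higher was 2 without drug replicate 2 or vehicle replicate 1. Mpo, myeloperoxidase, stood at 6517 and 6954 CPM with the drugs, 4647 and 4646 CPM with vehicle, and 3495 and 4027 CPM at day 0. It was called higher for the drugs over vehicle (log2 change 0.54 ± 0.104, edgeR adjusted p = 0.00179). Elane, neutrophil elastase, was called higher for vehicle over day 0 (1.69 ± 0.162, edgeR adjusted p = 6.28e-05).

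Relatives and partners of the granule proteins were followed as well. Of 16 annexins and S100 partners, 13 were tested, and 6 were called higher and 0 lower for the drugs over vehicle, against 1 and 4 for vehicle over day 0. Anxa1 is 1 of these 6. The shares of all tested genes were 18.1% higher and 13.8% lower for the drugs over vehicle. They were 3.75% and 3.99% for vehicle over day 0. Anxa5, another annexin, stood at 60.48 and 66.8 CPM with the drugs, 23.87 and 26.34 CPM with vehicle, and 50.73 and 34.66 CPM at day 0. Of 13 lectin complement genes, which include Fcnb, 3 were tested, and the other ficolin gene Fcna and the lectin genes Mbl1 and Mbl2 were at 0. C3, on which the complement pathways converge, was called higher for the drugs over vehicle (0.77 ± 0.144, edgeR adjusted p = 0.00127), where Fcnb was called lower, and C3 and Fcnb were both called higher for vehicle over day 0 (1.26 ± 0.179 for C3, edgeR adjusted p = 0.0012). Of 20 paralogs found, 7 were tested and 3, Chil4 included, were called higher and 0 lower, among them Olfm1, a relative of Olfm4 (2.82 ± 0.141, edgeR adjusted p = 1.12e-08). Chil4 was over the filter in the drug libraries only, and without it 2 of 6 were higher and 0 lower. Of 11 receptors and partners, 6 were tested, with 2 higher and 1 lower.

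Markers of mature neutrophils were uneven. Of 15 found, 8 had at most 10 counts in every library, and Retnlg and Stfa2l1 were at 0. Among all genes of the table, 50.6% had at most 10 counts in every library and 34.6% were at 0. S100a8 had 6 and 20 counts with the drugs, 23 and 11 with vehicle, and 4 and 4 at day 0. The summed level of the 15 markers was 214.3 and 208.3 CPM with the drugs, 204.6 and 207.5 CPM with vehicle, and 305.2 and 276.3 CPM at day 0. Much of that sum came from Clec4e, a lectin receptor, which stood at 87.07 and 81.51 CPM with the drugs, 110.0 and 111.6 CPM with vehicle, and 203.0 and 180.6 CPM at day 0, and from Csf3r, the receptor for granulocyte growth factor, at 60.07 and 55.89 CPM with the drugs, 48.3 and 47.32 CPM with vehicle, and 49.96 and 46.38 CPM at day 0. Of the 7 tested, 3 were called higher for the drugs over vehicle (Mmp9, Clec4d and Csf3r) and 1 lower (Clec4e). Mmp9 was over the filter in the drug libraries only. Without it 2 of 6 were higher and 1 lower, with a median log2 change of -0.01. Of all tested genes, 18.1% were called higher and 13.8% lower. The Csf3r call was lost in 6 of 15 alternatives.

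Chil3, Anxa1 and Lcn2 are also made by monocytes and macrophages, so markers of those cells were counted. Of 13 such markers, 10 were tested, and 7 were called higher and 2 lower for the drugs over vehicle, with C1qa and C1qc at 0. Without Ctss and Fn1, which were over the filter in the drug libraries only, 5 of 8 were higher and 2 lower. Of all tested genes, 18.1% were called higher and 13.8% lower. For vehicle over day 0, 0 of the 10 markers were higher and 2 lower. The shares of all tested genes there were 3.75% and 3.99%. For the drugs over day 0, 6 of the 10 were higher and 2 lower, against 22.7% and 21.2%. The summed level of the 13 markers was 1420 and 1532 CPM with the drugs, 1003 and 942.5 CPM with vehicle, and 1176 and 1235 CPM at day 0. Ms4a6c, a membrane protein of monocytes, had 2590 and 3493 counts with the drugs, 48 and 46 with vehicle, and 86 and 49 at day 0. The summed level of 8 mast cell and basophil markers was 1212 and 1126 CPM with the drugs, 496.4 and 479.7 CPM with vehicle, and 1090 and 903.4 CPM at day 0, nearly all of it from Cpa3, with Fcer1a and Tpsb2 at 0. Of the 3 of these tested, Cpa3 was called higher and Mcpt8 lower for the drugs over vehicle, and the median log2 change was -0.30. The Mcpt8 call was lost in 6 of 15 alternatives. Both sums were highest with the drugs and lowest with vehicle, but not every marker in them was. Ccr2, a chemokine receptor, supplied most of the monocyte and macrophage sum. It stood at 768.6 and 827.3 CPM with the drugs, 542.9 and 502.7 CPM with vehicle, and 793.4 and 834.7 CPM at day 0. Its drug and day 0 libraries overlapped, and it was not called between those groups (log2 change -0.03 ± 0.0808, edgeR adjusted p = 0.796). F13a1, coagulation factor XIII, was highest with vehicle. It stood at 285.4 and 313.7 CPM with the drugs, 424.2 and 405.0 CPM with vehicle, and 338.1 and 362.7 CPM at day 0. The part of these cell types in the granule gene results was not tested. For the drugs over vehicle, 1 eosinophil marker was called higher and 1 lower of 4 tested. The counts were 1 and 1 of 2 for the B and T cell markers, and 0 and 0 of 2 for the erythroid and megakaryocyte markers. The calls of the B cell markers Cd79a (higher) and Cd79b (lower) were lost in 4 and 6 of 15 alternatives.

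For each expressed gene, the genes nearest in pattern were found by the distance between log2 CPM values over the 6 libraries, each gene centred on its own mean, among 10887 genes. Chil3 was nearest to Chil4 (distance 0.491), Pram1 and Ly6c2. Anxa1 was nearest to Cd300lb (0.237), Gpr174 and Blvrb. Lcn2 was nearest to 4930539E08Rik (0.242), Anxa5 and Snhg5, and Pglyrp1 to S100a11, Fgl2 and Tigd5. Fcnb had no close neighbour: the nearest, Inhbb, a subunit of activin, was at a distance of 1.64, followed by Fam101b and Tgm3. Inhbb averaged 7.504 CPM with the drugs, 27.93 CPM with vehicle and 12.35 CPM at day 0, the same order of groups as Fcnb. With 3 groups of 2 libraries these distances are descriptions, and ranking by Pearson's r instead shared 1 of 3 genes for Pglyrp1 and 0 of 3 for each of the other 4.

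**Figure D4:**
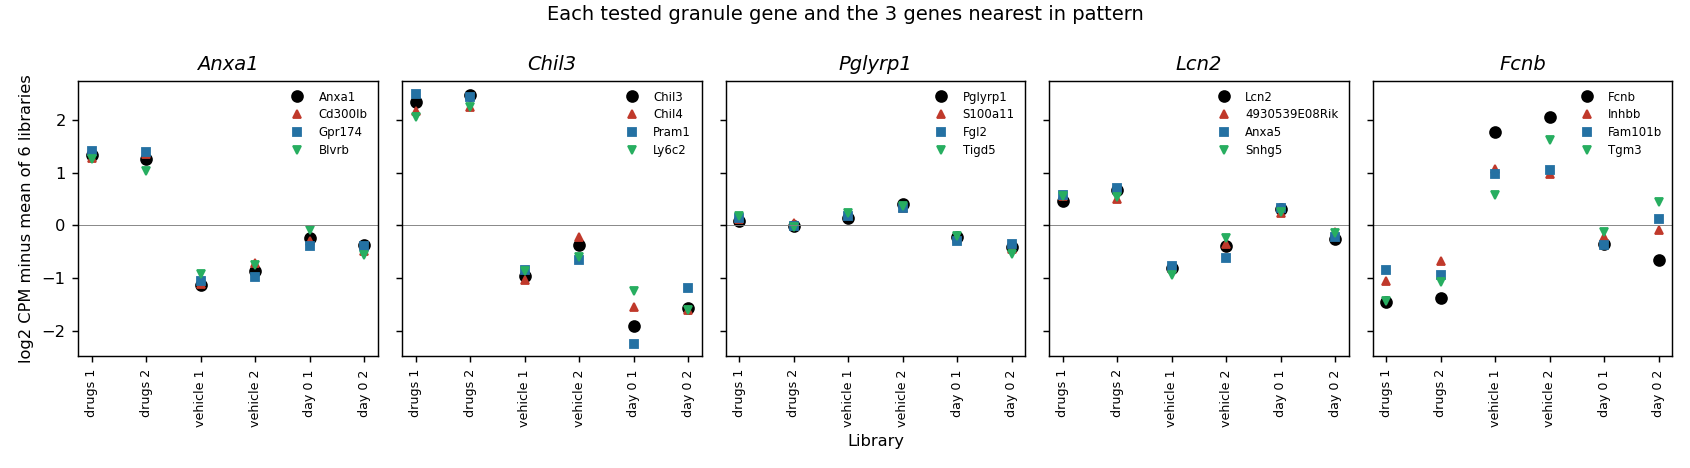
Log2 CPM of each tested gene and of the 3 genes nearest to it in pattern, each minus its mean over the 6 libraries. The Fcnb panel has the widest gap between the gene and its neighbours, with Inhbb at a distance of 1.64.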

How the data were processed

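Polyadenylated RNA of 6 libraries was analysed from the deposited table, which gives the raw read counts of each gene as deposited by the authors, with no scaling applied. The submitters' processing notes name STAR 2.7.0f, deepTools 3.0.2 and the mm10 build. Strand setting, treatment of multiply matching reads and annotation release are not stated there, so counts of overlapping genes and near copies are uncertain.

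The members and gene lists were chosen with earlier results of these data known. Genes passing filterByExpr (11283) were scaled by TMM and fitted in 1 model of all 3 groups with edgeR 4.0.16 (R 4.3.3), which left 3 residual degrees of freedom. Each contrast was tested by quasi-likelihood F, p-values were adjusted over the whole table (Benjamini-Hochberg), and genes under 0.05 were called. SEs come from the F statistics, and fitted log2 changes include a prior count of 0.125. Named genes were all members, the called genes of smallest p in each list (up to 4, or up to 8 for other granule genes and regulators), list genes at 0, the 3 nearest genes in pattern, and Kdm1a and Rn45s as checks. Single genes called against their list, and genes given to describe a marker list, were chosen after their values were seen. The fit was tested on simulated counts. Setting aside list genes over the filter in the drug libraries only was added after seeing the data. Alternatives changed the scaling, filter, tool (DESeq2 1.42.0), groups, replicate block and libraries. The labels do not say that replicate numbers pair cultures, so numbers were not used in the main fit. Deviations of replicate 1 from its group mean were correlated between groups across the tested genes. These correlations were 0.0807 (drugs and vehicle), -0.199 (vehicle and day 0) and -0.0604 (drugs and day 0). Per-length levels used the deposited gene lengths.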

Additional observations from a re-analysis of the deposited data

How the results depend on the processing

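Between drugs and vehicle, leaving out 1 library in turn gave 1251 to 2291 genes higher and 582 to 1900 lower, with 3 granule genes higher and 1 lower throughout. For vehicle over day 0 (423 genes higher and 450 lower) these ranges were 155 to 851 and 196 to 1161, with 1 to 3 granule genes higher and 1 to 2 lower. For the drugs over day 0 (2564 and 2394) they were 1667 to 2632 and 1205 to 2625, with 2 to 4 granule genes higher and 0 to 1 lower. For vehicle over day 0 the other settings gave 1741 higher and 216 lower with library totals, 255 and 236 with DESeq2, 821 and 843 with no filter (2 granule genes lower), and 269 and 258 with only those groups. The replicate block gave 222 and 261, and a crossed replicate block, with day 0 numbers exchanged and chosen after seeing the data, gave 1097 and 1283 (2 granule genes lower). For the drugs over day 0, library totals gave 1321 lower, and DESeq2 and the replicate block each left 2 granule genes higher. The causes were not tested. No called result changed direction. Library totals moved the median log2 change of all genes to 0.1044 for vehicle over day 0, and the share of calls that were higher to 89%, against 48.5%. For the drugs over day 0 the share became 70.4%, against 51.7%. Genes under the filter were limited by depth.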
